A study of Mus musculus with 12 samples.

Results

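The killer cell lectin-like receptor (Klr) genes encode receptors with a C-type lectin fold that were first known from NK cells and are also carried by subsets of T cells. The 10 genes described here, Klrd1, Klrc1, Klrc2, Klre1, Klra1, Klra6, Klra7, Klrk1, Klrb1c and Klrg1, were taken by symbol from a list, and all 10 were found among the 12809 genes of the deposited table. RNA was sequenced from LN T cells of 2 strains, B6 and FlipFlop, sorted as CD4 or CD8, which made 4 groups of 3 libraries each. B6 (C57BL/6) mice were 10 weeks old and FlipFlop mice 14 weeks old, and all mice were female, so strain and age cannot be told apart. FlipFlop mice carry Cd4 loci that encode CD8αβ.1 and Cd8a loci that encode CD4, on both copies of chromosome 6, whereas B6 loci were not altered. FlipFlop CD4 T cells are therefore set beside B6 CD8 T cells as the cytotoxic lineage, and FlipFlop CD8 T cells beside B6 CD4 T cells as the helper lineage. The altered Cd4 loci were made in B6 embryonic stem cells and the altered Cd8 loci in embryonic stem cells of another inbred strain. From which strain FlipFlop mice carry the NK gene complex, where these genes lie, is not given in the sources used here. Reads were aligned to mm10, and whether FlipFlop reads of these genes align there as B6 reads do was not tested, so low FlipFlop values and folds between strains carry this limit.

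Klr receptors fall into families with different partners. CD94, the product of Klrd1, pairs with an NKG2 protein, and the pair reads the nonclassical MHC class I molecule Qa-1. NKG2A delivers an inhibitory signal and NKG2C an activating one. Ly49 receptors, from the Klra genes, read classical MHC class I molecules, NKG2D reads stress-induced ligands through the adaptor DAP10, and KLRG1 reads cadherins. On T cells these receptors are known mainly from activated, memory and innate-like subsets.

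The libraries held 26.6 to 33.1 M reads on the listed genes, and 3 reads corresponded to 0.0857 to 0.120 CPM. Values are CPM scaled by the authors with a TMM factor, and differences are those of log2(CPM + 0.5), a scale that understates the change of low genes. T cell genes were high in all groups, with a mean Cd3e value of 345 to 400 CPM. Zbtb7b, the helper lineage factor, averaged 196 CPM (B6) and 168 CPM (FlipFlop) in the helper lineage, against 1.55 and 2.29 CPM in the cytotoxic lineage. Cd4 transcripts were at 637 to 719 CPM in FlipFlop CD4 libraries and at 40.9 to 43.6 CPM in FlipFlop CD8 libraries. The labels do not say whether replicates were separate animals, so p-values measure the spread between these samples, which may be technical. In sorted bulk samples, fewer cells with a transcript and less transcript per cell cannot be told apart.

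In B6 mice most of the receptor genes were higher in CD8 than in CD4 T cells, and in FlipFlop mice most of them were not higher in the cytotoxic lineage. Of the 10 genes, 8 passed the filter of at least 1 CPM in at least 3 libraries, and 4 of these, Klrc1, Klre1, Klra6 and Klra7, would not have passed without the B6 CD8 libraries, so that counts over the 8 genes that involve B6 CD8 T cells are set in part by the filter. Klrc2 and Klra1 did not pass and were tested in a fit without the filter. In B6 mice 6 of the 8 tested genes were higher in CD8 T cells (adjusted p under 0.05, limma) where 10.8% of all tested genes were, and 2 were lower where 14.6% were. In FlipFlop mice 1 of the 8 was higher in CD4 than in CD8 T cells where 15.3% of all tested genes were, and 3 were lower where 16.0% were, so that 4 of the 8 were called in either direction beside 31.3% of all tested genes. Without the filter 8 of all 10 receptor genes were higher in B6 CD8 T cells, beside 10.3% of all genes, and 2 were lower, beside 14.5%. The median difference of the 10 genes in this fit was 2.03 in B6 and -0.47 in FlipFlop mice, beside medians over all genes of -0.0051 and 0.023. The deposited table is itself labelled as filtered, by a rule not described here. Presence in it may thus also rest on the B6 CD8 libraries, and counts over the 10 genes are not free of a filter.

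**Figure D1:**
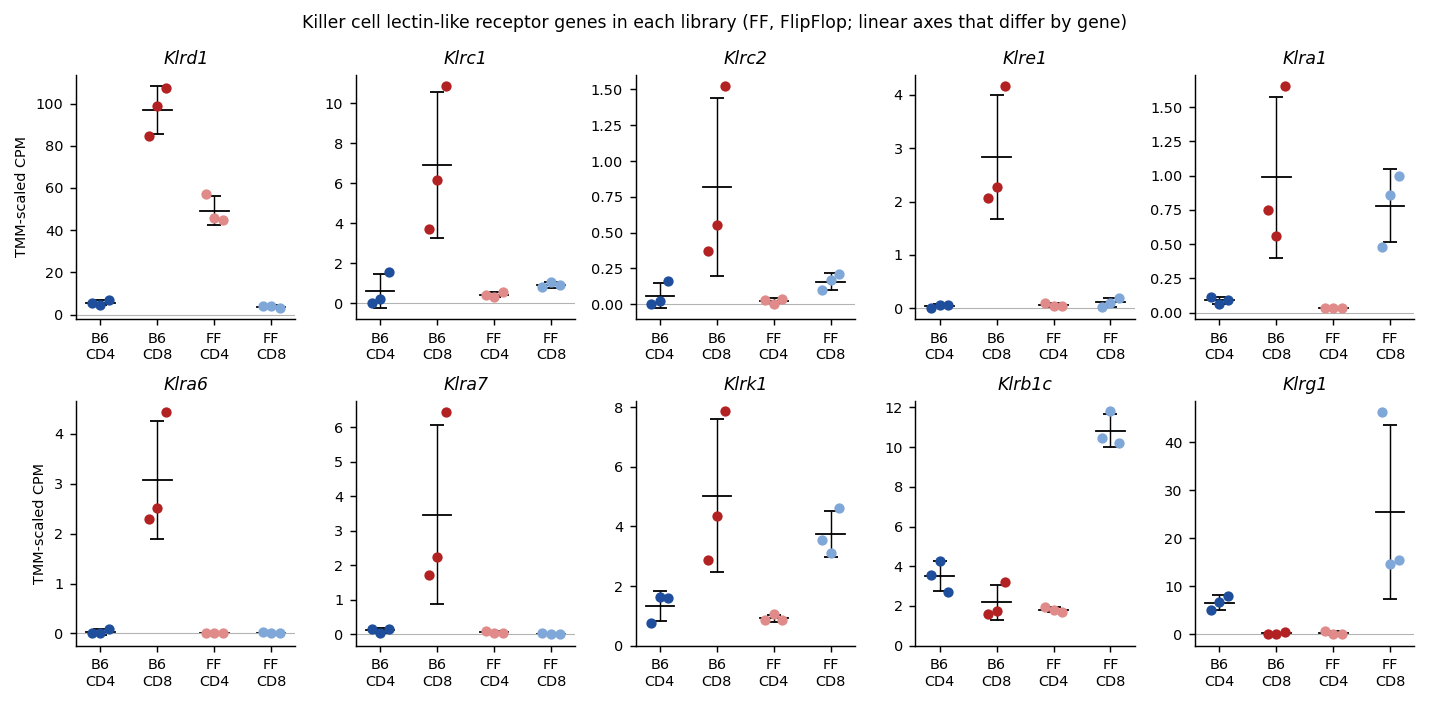
Each panel shows 1 receptor gene, with TMM-scaled CPM on a linear axis that differs by gene and the 4 groups along the horizontal axis (FF, FlipFlop). Points are the 3 libraries of a group, ordered by replicate number, and bars are the mean and the SD. Klre1, Klra6 and Klra7 were high in the B6 CD8 libraries alone, Klrd1 was highest there and next in the FlipFlop CD4 libraries, and Klrb1c and Klrg1 were highest in the FlipFlop CD8 libraries.

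Klrd1 encodes CD94 and lies at chr6:129591782-129598775 (GRCm38, plus strand). Klrd1 values were 84.6, 99.0 and 107 CPM in the B6 CD8 libraries and 57.2, 45.8 and 44.8 CPM in FlipFlop CD4 T cells. Helper lineage values of Klrd1 were 5.64, 4.65 and 6.71 CPM in B6 CD4 and 4.27, 4.17 and 3.0 CPM in FlipFlop CD8 T cells. All cytotoxic libraries of both strains were above all helper libraries, and within the cytotoxic lineage all FlipFlop values were below all B6 values. The lineage difference was 3.99 (SE 0.16, adjusted p = 3.93e-09, limma) in B6 and 3.53 (SE 0.16, adjusted p = 1.03e-08, limma) in FlipFlop mice. These lineage differences differed by 0.46, which was not called (95% interval -0.03 to 0.94, adjusted p = 0.299, limma). The FlipFlop CD4 mean of 49.3 ± 6.89 CPM (SD, n = 3) was 50.8% of the B6 CD8 mean of 97.0 ± 11.5 CPM (SD, n = 3). This strain difference was -0.97 (SE 0.16, adjusted p = 0.00232, limma). In the helper lineage Klrd1 was lower in FlipFlop T cells by -0.52 (adjusted p = 0.0311, limma), but this call was lost without the TMM factor (-0.37, adjusted p = 0.0672), with only the libraries compared, without moderation and when any of 4 single libraries was left out.

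Klrc1 (chr6:129666015-129678973, minus strand) encodes NKG2A and Klrc2 (chr6:129647496-129660689, minus strand) encodes NKG2C. Their coding sequences were 83.1% identical over 714 aligned bases, and in 6 of 12 libraries both held fractions of a read, which in 4 of these 6 summed to a whole number over the pair. Of the transcript windows of 100 bases, 14.6% of those of Klrc1 also occurred in Klrc2, so how the authors' counting split reads between them bears on both values. The stretch in which the coding sequences pass from diverged to near identical is shown (GENCODE M21 transcripts of GRCm38, sense strand), with Klrc1 from coding base 301 to 420 and Klrc2 from coding base 283 to 402, and with capitals at bases that differ. In the first 60 bases 25 differ, and in the last 60 bases 2 do.
Klrc1: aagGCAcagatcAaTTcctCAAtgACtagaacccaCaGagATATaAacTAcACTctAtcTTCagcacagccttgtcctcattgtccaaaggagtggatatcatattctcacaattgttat
Klrc2: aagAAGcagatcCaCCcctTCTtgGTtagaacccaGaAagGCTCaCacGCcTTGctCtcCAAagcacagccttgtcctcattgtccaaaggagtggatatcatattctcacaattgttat

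Klrc1 values were 3.74, 6.16 and 10.9 CPM in the B6 CD8 libraries and 0.427, 0.326 and 0.558 CPM in FlipFlop CD4 T cells. The helper libraries held 0.0376, 0.207 and 1.58 CPM in B6 CD4 and 0.804, 1.09 and 0.905 CPM in FlipFlop CD8 T cells. B6 CD8 libraries lay above all other libraries, and the FlipFlop CD4 mean was 6.30% of the B6 CD8 mean. The B6 lineage difference was 2.89 (SE 0.44, adjusted p = 0.000348, limma) and the strain difference in the cytotoxic lineage was -2.88 (SE 0.44, adjusted p = 0.00161, limma). In FlipFlop mice the lineage difference of Klrc1 was -0.62 and was not called (95% interval -1.58 to 0.35, adjusted p = 0.332, limma), although all 3 FlipFlop CD4 values were below all 3 FlipFlop CD8 values. It was called with the replicate number as a block within strain (adjusted p = 0.0343, limma) and with only the libraries compared (adjusted p = 0.0309, limma). B6 CD4 replicate 3 held most of the Klrc1 signal of its group, and without it the B6 CD4 mean moved from 0.610 to 0.122 CPM and the helper strain difference from 0.63 (adjusted p = 0.296) to 1.21 (adjusted p = 0.0197, limma).

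Klrc2 followed at lower levels, with 0.375, 0.552 and 1.53 CPM in the B6 CD8 libraries and 0.0328, 0 and 0.0372 CPM in FlipFlop CD4 T cells. B6 CD4 libraries held 0, 0.0194 and 0.161 CPM and FlipFlop CD8 libraries 0.0964, 0.168 and 0.209 CPM, values at or near the worth of 3 reads. In the fit without a filter Klrc2 differed by 1.15 between B6 lineages (adjusted p = 0.00589, limma) and by -1.23 between strains in the cytotoxic lineage (adjusted p = 0.0122, limma). FlipFlop CD4 T cells held 2 reads over the group against 69.8 in B6 CD8 T cells, a ratio of 36.2 with a counting interval of 9.68 to 306. B6 CD8 replicate 3 held 46.1 of these reads, and without it the ratio was 19.5 (counting interval 4.90 to 172) and the B6 CD8 mean 0.463 instead of 0.817 CPM. With both genes summed, a choice made after seeing the data, the B6 lineage difference was 2.98 (adjusted p = 0.000395, limma) and the cytotoxic strain difference -2.98 (adjusted p = 0.00175, limma). Per kilobase of merged exons the B6 CD8 level of Klrd1 was 75.7 CPM and that of Klrc1 3.49 CPM, and in FlipFlop CD4 T cells these levels were 38.5 and 0.220 CPM.

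Klre1 (chr6:129577905-129585827, plus strand) encodes a receptor chain of NK cells that pairs with KLRI proteins, whose genes are not among those listed in the table. Klre1 was at 2.06, 2.28 and 4.17 CPM in the B6 CD8 libraries, and the other 9 libraries held at most 0.200 CPM. Over the group FlipFlop CD4 T cells held 5 reads of Klre1 against 238 in B6 CD8 T cells, which made their mean 2.02% of the B6 CD8 mean. The B6 lineage difference was 2.57 (SE 0.22, adjusted p = 3.38e-06, limma) and the cytotoxic strain difference -2.53 (SE 0.22, adjusted p = 1.80e-05, limma). In FlipFlop mice the lineage difference was -0.12 (95% interval -0.61 to 0.36, adjusted p = 0.728, limma), not detectable at this depth.

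The 3 Ly49 genes are Klra1 (Ly49A, chr6:130363917-130386874), Klra6 (Ly49F, chr6:130013033-130026954) and Klra7 (Ly49G, chr6:130218605-130233322), all on the minus strand. Their coding sequences were 82.4% to 88.0% identical in pairs, but no 100-base window of Klra1 or Klra6 transcripts occurred in another gene. Of the Klra7 windows 1.83% occurred in the pseudogene Klra13-ps, and in B6 CD8 replicate 3 fractional reads of this pair summed to a whole number. Klra6 values were 2.28, 2.52 and 4.44 CPM in the B6 CD8 libraries, and all 3 FlipFlop CD4 libraries were at 0. In B6 CD4 replicate 3 Klra6 was at 0.0919 CPM and in FlipFlop CD8 replicate 1 at 0.0321 CPM, and the remaining helper libraries were at 0. Taking 3 reads per FlipFlop CD4 library as the limit that a count of 0 allows, Klra6 was at least 29.0-fold higher in B6 CD8 than in FlipFlop CD4 T cells. The counting intervals and floors given here cover counting error in the reads only, not the spread between libraries. The reads carried no molecular identifiers, so duplicate reads are not covered either.

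Klra7 was at 1.72, 2.24 and 6.45 CPM in the B6 CD8 libraries and at 0.0985, 0.0362 and 0.0372 CPM in FlipFlop CD4 T cells. The 6 helper libraries held between 0 and 0.153 CPM, so that B6 CD8 libraries again stood above all other libraries. B6 CD8 replicate 3 moved the group mean of Klra7 most, and without it the mean was 1.98 instead of 3.47 CPM. The B6 lineage difference was 2.71 (SE 0.21, adjusted p = 1.28e-06, limma) for Klra6 and 2.52 (SE 0.33, adjusted p = 0.000105, limma) for Klra7. In the cytotoxic lineage the strain difference was -2.79 (adjusted p = 4.60e-06, limma) for Klra6 and -2.65 (adjusted p = 0.000317, limma) for Klra7. The FlipFlop lineage difference was -0.03 for Klra6 (95% interval -0.49 to 0.43) and 0.12 for Klra7 (95% interval -0.59 to 0.84), and neither was detectable at this depth.

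Klra1 differed from the other Ly49 genes in the helper lineage of FlipFlop mice. Klra1 was at 0.749, 0.560 and 1.66 CPM in B6 CD8 and at 0.482, 0.860 and 1.0 CPM in FlipFlop CD8 T cells. B6 CD4 libraries held 0.113, 0.0646 and 0.0919 CPM, and each FlipFlop CD4 library held 1 read, worth 0.0328, 0.0362 or 0.0372 CPM. The values of B6 CD8 and FlipFlop CD8 T cells overlapped, and all 6 were above those of the remaining libraries. In the fit without a filter the lineage difference of Klra1 was 1.27 in B6 (adjusted p = 0.00179, limma) and -1.24 in FlipFlop mice (adjusted p = 0.00175, limma). Klra1 was thus lower in FlipFlop CD4 T cells than in B6 CD8 T cells by -1.41 (adjusted p = 0.00339, limma) and higher in FlipFlop CD8 than in B6 CD4 T cells by 1.10 (adjusted p = 0.00732, limma). Both differences rested on low counts, with 84 reads over the B6 CD8 group and 76 over the FlipFlop CD8 group, and without B6 CD8 replicate 3 the B6 CD8 mean of Klra1 was 0.655 instead of 0.989 CPM.

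**Figure D2:**
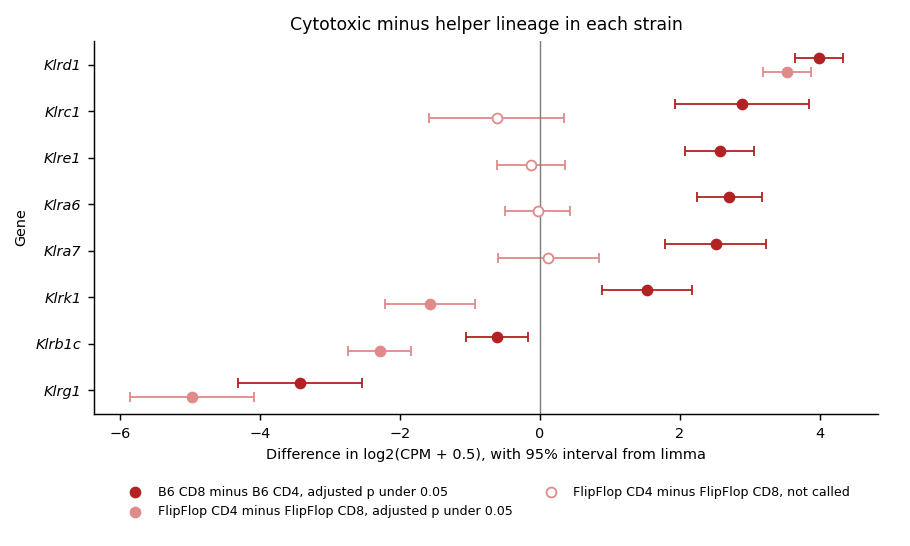
Cytotoxic minus helper lineage difference in log2(CPM + 0.5) of the 8 tested receptor genes, with 95% intervals from limma, for B6 (dark red) and FlipFlop mice (light red), where open points were not called. Klrd1 was positive in both strains, Klrg1 and Klrb1c were negative in both, Klrk1 had opposite signs, and Klrc1, Klre1, Klra6 and Klra7 were positive in B6 and not called in FlipFlop mice.

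Klrk1 (chr6:129610323-129623864, minus strand) encodes the activating receptor NKG2D. Klrk1 was at 2.88, 4.36 and 7.85 CPM in B6 CD8 and at 3.54, 3.11 and 4.60 CPM in FlipFlop CD8 T cells. B6 CD4 libraries held 0.751, 1.65 and 1.59 CPM and FlipFlop CD4 libraries 0.854, 1.05 and 0.855 CPM. In each strain all CD8 libraries were above all CD4 libraries, so the lineage difference had opposite signs, at 1.54 (SE 0.30, adjusted p = 0.00199, limma) in B6 and -1.57 (SE 0.30, adjusted p = 0.0015, limma) in FlipFlop mice. The FlipFlop CD4 mean was 18.3% of the B6 CD8 mean, a strain difference of -1.86 (adjusted p = 0.00207, limma). In the helper lineage Klrk1 was higher in FlipFlop T cells by 1.24 (adjusted p = 0.0111, limma), and without FlipFlop CD8 replicate 3 by 1.10 with an adjusted p of 0.0501 (limma).

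Klrb1c (chr6:128778485-128789215, minus strand) encodes the activating receptor NK1.1, a marker of NK and NKT cells in B6 mice. Of its transcript windows 10.8% also occurred in Gm44511, a gene annotated over it on the same strand, or in Klrb1a, so its counts are uncertain to that extent. Klrb1c was at 10.5, 11.8 and 10.2 CPM in FlipFlop CD8 T cells and at 3.57, 4.26 and 2.73 CPM in B6 CD4 T cells. FlipFlop CD4 libraries held 1.94, 1.81 and 1.71 CPM and B6 CD8 libraries 1.57, 1.76 and 3.21 CPM. FlipFlop CD8 libraries were above all others, and those of the cytotoxic lineage overlapped between strains. Klrb1c was higher in FlipFlop CD8 than in B6 CD4 T cells by 1.51 (SE 0.20, adjusted p = 0.00039, limma), and the FlipFlop lineage difference was -2.29 (SE 0.20, adjusted p = 3.27e-06, limma). The B6 lineage difference was -0.61 (adjusted p = 0.0439, limma), and it was not called with the replicate number as a block (adjusted p = 0.0562) or with only the libraries compared (adjusted p = 0.138, limma), nor in 10 of the 12 fits that left out 1 library.

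Klrg1 (chr6:122270596-122282882, minus strand) encodes an inhibitory receptor of effector and memory T cells and lies 2.58 Mb from Cd4, apart from the other members. Klrg1 was at 46.3, 14.7 and 15.4 CPM in FlipFlop CD8 T cells and at 4.96, 6.68 and 8.0 CPM in B6 CD4 T cells. Libraries of the cytotoxic lineage held 0.0374, 0.0800 and 0.364 CPM in B6 CD8 and 0.624, 0.0362 and 0.112 CPM in FlipFlop CD4 T cells. All helper libraries were above all cytotoxic ones, and all FlipFlop CD8 values were above all B6 CD4 values. The lineage difference was -3.42 (SE 0.41, adjusted p = 4.87e-05, limma) in B6 and -4.97 (SE 0.41, adjusted p = 1.57e-06, limma) in FlipFlop mice. In the helper lineage the strain difference was 1.69 (SE 0.41, adjusted p = 0.0114, limma). It was not called with a pseudocount of 0.1 (1.75, adjusted p = 0.0577, limma). FlipFlop CD8 replicate 1 set much of this level, and without it the mean was 15 instead of 25.4 CPM and the strain difference 1.16 (adjusted p = 0.0243, limma). The same library was also highest of its group for 11 of 13 listed memory or effector genes, not for Gzmb and Ly6c2, among them Ccl5 (164 CPM, against 15.3 and 35.8) and Gzmm (20.1 CPM, against 0.364 and 0.886), and their part in the Klrg1 value was not tested.

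B6 CD8 replicate 3 was the highest B6 CD8 library for all 10 genes, from 1.17 times the mean of the other 2 libraries for Klrd1 to 6.20 times for Klrg1, which was at 0.364 CPM there. Of the tested myeloid markers it was highest of its group for Lyz2 (15.4 CPM, against 7.64 and 5.84), Itgax and Csf1r, not for Itgam. Of the tested NK cell markers it was highest for Gzma, Tyrobp and Itga2, not for Xcl1, Eomes and Fcgr3. The part of these markers in the receptor values was not tested. Without B6 CD8 replicate 3 the counts of called genes among the tested members were 8 for the B6 lineage difference, 6 for the cytotoxic strain difference and 6 for the difference of lineage differences, the same as with it. Over all 11595 tested genes the B6 lineage calls were then 1021 higher and 1412 lower, instead of 1256 and 1688. All-gene calls fell from 918 to 585 in the cytotoxic strain difference and from 636 to 399 in the difference of lineage differences. For the 6 genes with a positive B6 lineage difference it was smaller without this library, as for Klrk1 (1.19) and Klra7 (2.02), whereas it was more negative for Klrb1c (-0.87) and Klrg1 (-3.63).

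Between strains, the cytotoxic lineage of FlipFlop mice held less of most of these transcripts and the helper lineage more of some. In the cytotoxic lineage 6 of the 8 tested genes were lower in FlipFlop CD4 T cells than in B6 CD8 T cells where 3.75% of all tested genes were, and 0 were higher, also at an unadjusted p under 0.05 (limma), where 4.17% were. The 2 genes not called were Klrg1 (0.15, 95% interval -0.74 to 1.04) and Klrb1c (-0.16, 95% interval -0.61 to 0.28). Of the 6 genes called, 4 had passed the filter only with the B6 CD8 libraries. Without the filter 8 of all 10 genes were lower, beside 3.54% of all genes, and the median strain difference of the 10 was -1.64, beside 3e-05 over all genes. The deposited values are themselves labelled as filtered, so this count too may rest in part on the B6 CD8 libraries. In the helper lineage Klrg1, Klrb1c and Klrk1 were higher in FlipFlop CD8 than in B6 CD4 T cells where 13.2% of all tested genes were, and Klrd1 was lower where 14.4% were. Without FlipFlop CD8 replicate 3 only Klrg1 and Klrb1c of these were called. Without the filter the median of the 10 genes in this lineage was 0.43, beside 0.0026 over all genes. The cytotoxic strain difference uses the same B6 CD8 and FlipFlop CD4 libraries as the lineage differences, so their values are not independent.

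**Figure D3:**
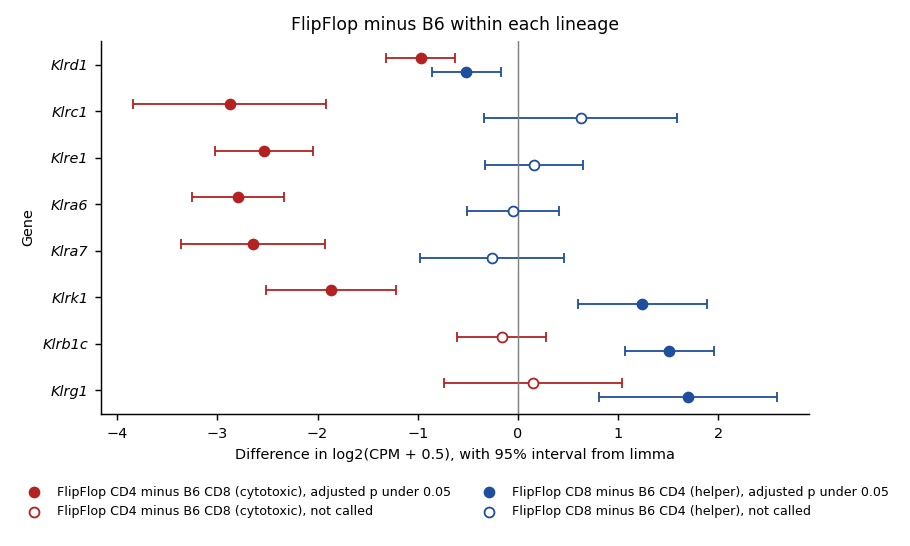
FlipFlop minus B6 difference in log2(CPM + 0.5) of the 8 tested receptor genes with 95% intervals from limma, in the cytotoxic lineage (FlipFlop CD4 minus B6 CD8, red) and in the helper lineage (FlipFlop CD8 minus B6 CD4, blue), where open points were not called. In the cytotoxic lineage the 6 called genes lay between -0.97 and -2.88, and in the helper lineage 3 called genes lay between 1.24 and 1.69 and Klrd1 at -0.52.

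The signed cytotoxic minus helper difference was higher in B6 than in FlipFlop mice for 6 of the 8 tested genes where 3.78% of all tested genes were called in this direction, and for 0, also at an unadjusted p under 0.05 (limma), it was lower where 1.71% were (5.49% in either direction). Without the filter it was higher for 8 of the 10 genes, beside 3.83% of all genes, a count that may also rest in part on the filtering of the deposited table. For Klrb1c the lineage difference was negative in both strains and the larger in size in FlipFlop mice, and for Klrk1 the differences were of like size and opposite sign. The difference of the lineage differences was largest for Klrc1 at 3.50 (SE 0.62, adjusted p = 0.00656, limma) and Klrk1 at 3.11 (SE 0.42, adjusted p = 0.00109, limma). In the fit without a filter it was also called for Klra1 (2.50, adjusted p = 0.00111, limma) and Klrc2 (1.47, adjusted p = 0.0367, limma). For Klrg1 it was 1.54 (95% interval 0.29 to 2.80, adjusted p = 0.167, limma), and with the replicate number as a block within strain the adjusted p was 0.00516. By the stricter rule of more than 5-fold with an unadjusted p under 0.0001, 6 of the 8 tested genes were called in the B6 lineage difference (1.55% of all tested genes), 2 in that of FlipFlop mice (2.16%), 4 in the cytotoxic strain difference (0.474%) 3 in the difference of lineage differences (0.388%) and 0 in the helper strain difference (0.405%), where the 5-fold limit gave 0 also at an unadjusted p under 0.05 (limma).

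The genes that carry the signal of these receptors were followed as a list. Of 20 listed adaptor and signalling genes 19 were tested, and between B6 lineages 2 were higher in CD8 T cells (10.8% of all tested genes were) and 7 lower (14.6%), with a median of -0.12. Hcst, which encodes the NKG2D adaptor DAP10, was at 115 ± 4.67 CPM in B6 CD8, 94.4 ± 6.33 in FlipFlop CD4, 96.3 ± 18.6 in B6 CD4 and 70.6 ± 7.61 in FlipFlop CD8 libraries (SD, n = 3 each). Hcst was lower in FlipFlop CD8 than in B6 CD4 T cells by -0.43 (adjusted p = 0.0206, limma), where Klrk1 was higher. Tyrobp, which encodes DAP12, the adaptor of NKG2C and of activating Ly49 receptors, averaged 1.43 CPM in B6 CD8, 0.667 in FlipFlop CD4, 1.52 in B6 CD4 and 1.27 in FlipFlop CD8 T cells. By B6 lineage difference the leading genes of the list were Vav2 (-1.25), Plcg2 (1.18), Vav3 (-0.73) and Syk (-0.71), all called. Of 6 listed inhibitory phosphatase and regulator genes 1 was higher and 3 were lower in B6 CD8 T cells, beside the same 10.8% and 14.6% of all tested genes. By B6 lineage difference this list was led by Inppl1 (-1.52), which encodes the phosphatase SHIP-2, Ptpn6 (0.32), which encodes SHP-1, Ptpn11 (-0.27), which encodes SHP-2, and Pag1 (0.26), all called but Pag1.

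Of 20 listed ligand genes 9 were tested. H2-T23, which encodes the Qa-1 heavy chain read by CD94 and NKG2 proteins, was at 472, 473 and 608 CPM in the B6 CD8 libraries and at 329, 308 and 293 CPM in FlipFlop CD4 T cells. Helper lineage values of H2-T23 were 534, 416 and 543 CPM in B6 CD4 and 301, 266 and 255 CPM in FlipFlop CD8 T cells, so that all FlipFlop libraries were below all B6 libraries. The strain difference was -0.73 in the cytotoxic (adjusted p = 0.00307, limma) and -0.85 in the helper lineage (adjusted p = 6.00e-04, limma). Cdh1, which encodes E-cadherin, a ligand of KLRG1, was at 10.2, 9.76 and 5.93 CPM in the B6 CD8 libraries and averaged 0.931 to 1.58 CPM in the other groups. Its B6 lineage difference was 2.41 (adjusted p = 1.91e-05, limma) and its cytotoxic strain difference -2.14 (adjusted p = 0.000224, limma). After Cdh1 the leading ligand genes by B6 lineage difference were H2-T24 (-0.53), Ulbp1 (0.30) and B2m (0.16), of which none was called. Between strains 1 ligand gene was higher and 2 were lower in the cytotoxic lineage (4.17% and 3.75% of all tested genes), and 0 were higher (1 at an unadjusted p under 0.05, limma) and 4 lower in the helper lineage (13.2% and 14.4%).

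Of 25 listed transcription factors of NK and cytotoxic cells, 10 were higher and 1 lower in FlipFlop CD8 than in B6 CD4 T cells, beside 13.2% and 14.4% of all tested genes, and 2 were higher and 1 lower in FlipFlop CD4 T cells than in B6 CD8 T cells, beside 4.17% and 3.75%. By B6 lineage difference they were led by Zbtb7b (-6.60), Tox2 (-3.88), Eomes (3.20) and Ikzf2 (-2.30), all called. Eomes, a T-box factor of NK and memory CD8 T cells, averaged 69.1 ± 4.71 CPM in the B6 and 64.9 ± 25.1 CPM in the FlipFlop cytotoxic lineage (SD, n = 3 each), a strain difference of -0.16 that was not called (adjusted p = 0.812, limma). Tbx21, which encodes T-bet, was at 24.2, 24.3 and 25.2 CPM in B6 CD8 and at 10.4, 6.09 and 7.40 CPM in FlipFlop CD4 T cells, lower by -1.60 (adjusted p = 0.0284, limma). Tbx21 was chosen after its values were seen.

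Marker genes of other cell types moved with some of the values. Of 10 listed NK cell markers 6 were tested, and Ncr1, Ncam1, Cd244 and Cd244a were not among the genes of the table. The summed level of the list was 84.2 to 94.0 CPM in B6 CD8, 56.5 to 106 in FlipFlop CD4, 12.8 to 18.9 in B6 CD4 and 21.4 to 40.8 in FlipFlop CD8 libraries, with Eomes holding most of it in the cytotoxic lineage. By B6 lineage difference the list was led by Xcl1 (3.40), Eomes (3.20), Gzma (1.35) and Itga2 (-0.36), of which Itga2 was not called. In the cytotoxic lineage 0 of the 6 were higher, also at an unadjusted p under 0.05 (limma), and 2, Xcl1 (-0.95) and Tyrobp (-0.70), were lower in FlipFlop CD4 T cells, beside 4.17% and 3.75% of all tested genes, and their part in the receptor values was not tested. Between strains in the helper lineage 2 NK cell markers, Itga2 (1.20) and Xcl1 (0.96), were higher in FlipFlop CD8 T cells and 0 lower, also at an unadjusted p under 0.05 (limma), beside 13.2% and 14.4% of all tested genes, and their part in the values of Klrb1c, Klrk1 and Klrg1 was not tested.

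In the helper lineage 1 NKT cell marker and 3 of 5 tested γδ T cell markers were higher in FlipFlop CD8 T cells (13.2% of all tested genes were), as were Klrb1c and Klrk1. Zbtb16, which encodes PLZF, the factor of NKT cells and the 1 gene of 3 listed for them that was in the table, was at 4.31, 10.2 and 9.29 CPM in FlipFlop CD8 and at 0.0613 to 0.323 CPM in B6 CD4 libraries (difference 3.49, adjusted p = 6.78e-06, limma). The 5 tested γδ T cell markers were part of a list of 9, and their summed level was 27.4 to 28.8 CPM in FlipFlop CD8 and 13.8 to 18.3 CPM in B6 CD4 libraries. The γ constant genes Tcrg-C4 (2.48), Tcrg-C2 (2.13) and Tcrg-C1 (1.10) were higher, whereas the δ constant gene Trdc was lower by -0.52 (adjusted p = 0.00757, limma) and Blk was not called (-0.39). Leading the γδ list by B6 lineage difference were Tcrg-C1 (-0.74), Trdc (-0.46), Blk (-0.45) and Tcrg-C4 (-0.26), of which Tcrg-C1 and Trdc were called. Tcrg-C1 was the 1 γδ marker called between strains in the cytotoxic lineage, lower by -0.87 (adjusted p = 0.00485, limma), beside 3.75% of all tested genes. At an unadjusted p under 0.05 (limma) 3 of the 5 were lower and 0 higher there, and the list median was -0.75. Of 13 listed memory or effector genes 8 were higher in FlipFlop CD8 than in B6 CD4 T cells (13.2% of all tested genes), with a median of 1.09, and of 7 naive genes 4 were lower (14.4%), with a median of -0.37. In the opposite directions 0 memory and 0 naive genes were called, also at an unadjusted p under 0.05 (limma). Between strains in the cytotoxic lineage 1 memory or effector gene was higher (4.17% of all tested genes) and 3 were lower (3.75%), with 7 lower at an unadjusted p under 0.05 (limma) and a median of -0.70, and the summed level of the list was 778 to 922 CPM in FlipFlop CD4 and 1460 to 1680 CPM in B6 CD8 libraries. Most of this sum came from Ly6c2 (mean 256 CPM in FlipFlop CD4 and 626 in B6 CD8) and Il2rb (348 and 565 CPM). In the helper lineage the summed level of the list was 1156 to 1683 CPM in FlipFlop CD8 and 564 to 690 CPM in B6 CD4 libraries. By B6 lineage difference the memory list was led by Ly6c2 (6.76), Gzmm (3.74), S100a4 (-3.65) and Ccl5 (2.90). The lists also moved with the FlipFlop lineage difference, CD4 minus CD8 T cells, in which 15.3% of all tested genes were higher and 16.0% lower. There 1 memory or effector gene was higher and 6 lower, with a median of -1.30, and 5 of the 7 naive genes were higher. Of the 5 γδ T cell markers 3 were lower, with a median of -2.71, Zbtb16 was lower by -3.99, and of the 6 NK cell markers 2 were higher and 2 lower. The part of these lists in the receptor values was not tested, and the mice differed in age as well.

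B cell and myeloid markers were not higher in FlipFlop than in B6 libraries of the same lineage. The summed level of 5 B cell markers was 36.3 to 38.5 CPM in FlipFlop CD8 and 47.3 to 59.9 CPM in B6 CD4 libraries, and in the cytotoxic lineage it was 35.2 to 55.2 CPM in FlipFlop CD4 and 48.0 to 67.0 CPM in B6 CD8 libraries. Of these, 3 were lower in the helper lineage (14.4% of all tested genes), and in the cytotoxic lineage 0 were called, with 2 lower at an unadjusted p under 0.05 (limma). Of 5 myeloid markers, Cd14 was not among the genes of the table, and of 4 tested 1 was lower in each lineage of FlipFlop mice (3.75% of all tested genes in the cytotoxic and 14.4% in the helper lineage) and 0 were higher, also at an unadjusted p under 0.05 (limma). The myeloid list was led, by B6 lineage difference, by Itgax (1.65), Itgam (-1.59), Lyz2 (-0.76) and Csf1r (-0.45), of which Itgax and Itgam were called. Within FlipFlop mice 3 of the 4 myeloid markers were lower in CD4 than in CD8 T cells and 0 higher, with a median of -1.11. Of the 5 B cell markers 1 was higher and 0 lower in that comparison, beside 15.3% and 16.0% of all tested genes. The summed myeloid level was 6.26 to 8.55 CPM in FlipFlop CD4 and 10.1 to 22.1 CPM in B6 CD8 libraries, and the part of both lists in the lower receptor values of FlipFlop CD4 T cells was not tested.

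Except for Klrg1, the receptor genes lie within 1.61 Mb on chromosome 6, in the NK gene complex, which begins here 3.89 Mb beyond Cd4. From Cd4 to 1 Mb beyond Klra1, 47 other genes were tested. In the cytotoxic lineage 14.9% of them were called between strains, 3 higher and 4 lower, and in the helper lineage 31.9%, 9 higher and 6 lower, beside 7.92% and 27.6% of all tested genes. The largest strain differences in the interval were those of Klra3 (-2.13 in the cytotoxic lineage), Lag3 (1.64 in the cytotoxic lineage), Foxm1 (1.44 in the helper lineage) and Ptms (1.32 in the cytotoxic lineage). Klra3, a further Ly49 gene, was at 1.88 ± 0.424 CPM in B6 CD8 and at 0.0372 ± 0.0644 CPM in FlipFlop CD4 libraries (SD, n = 3 each, adjusted p of the difference 2.9e-05, limma).

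**Figure D4:**
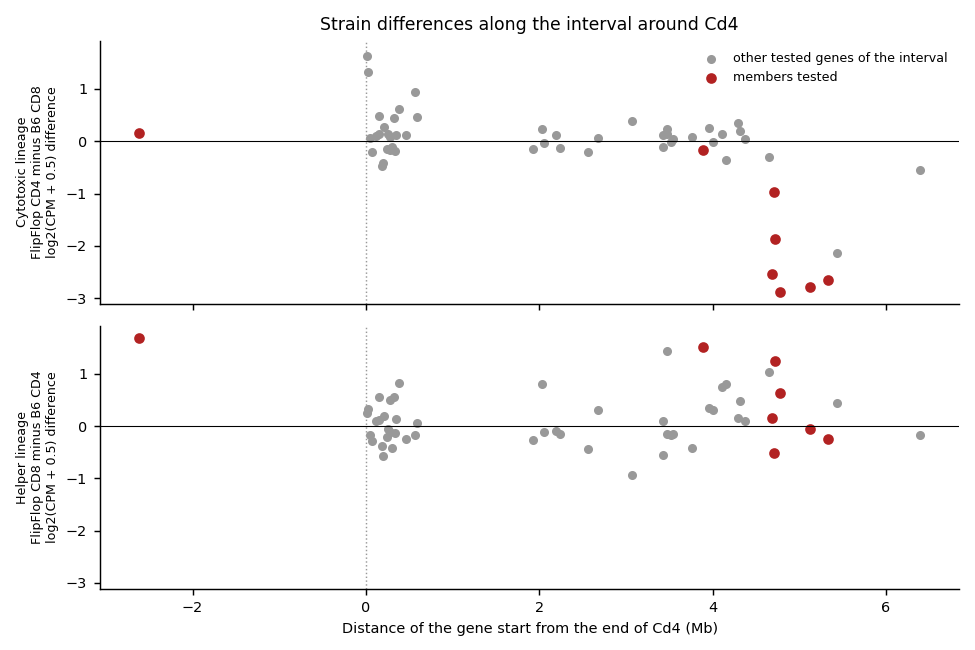
FlipFlop minus B6 difference in log2(CPM + 0.5) of tested genes against their distance from the end of Cd4 in Mb, in the cytotoxic (top) and helper lineage (bottom), with the 8 tested receptor genes in red and the 47 other genes in gray. In the cytotoxic lineage 6 receptor genes and Klra3 lay below the other genes at 4 Mb and beyond, and Lag3 and Ptms, next to Cd4, lay highest.

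Promoter sequences of 300 bases, from 250 bases before to 50 bases after a start site, were found in RefSeq (GRCm38.p6) for 8 of the 10 genes, not for Klrd1 and Klrg1. Those of Klrc1, Klre1, Klra6 and Klra7 are shown, since these 4 genes were high in B6 CD8 T cells and not in FlipFlop CD4 T cells. Each is written 5′ to 3′ on the strand of its gene, with capitals at the RUNX letters TGTGGT on either strand. They are Klrc1 at chr6:129678924-129679223 (minus strand), Klre1, first start site, at chr6:129577963-129578262 (plus strand), Klra6 at chr6:130026905-130027204 (minus strand) and Klra7, second start site, at chr6:130233273-130233572 (minus strand).
Klrc1: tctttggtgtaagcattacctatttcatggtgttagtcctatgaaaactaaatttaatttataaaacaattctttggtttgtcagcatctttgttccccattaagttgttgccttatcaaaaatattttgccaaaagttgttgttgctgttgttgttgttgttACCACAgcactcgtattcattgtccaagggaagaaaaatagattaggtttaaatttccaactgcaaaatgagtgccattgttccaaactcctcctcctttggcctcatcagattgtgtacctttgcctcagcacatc
Klre1: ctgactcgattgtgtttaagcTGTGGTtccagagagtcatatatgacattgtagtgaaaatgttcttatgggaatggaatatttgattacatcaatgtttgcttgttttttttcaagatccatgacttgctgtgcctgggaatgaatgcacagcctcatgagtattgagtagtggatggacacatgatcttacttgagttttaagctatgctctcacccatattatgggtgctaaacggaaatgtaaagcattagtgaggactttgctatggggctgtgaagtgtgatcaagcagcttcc
Klra6: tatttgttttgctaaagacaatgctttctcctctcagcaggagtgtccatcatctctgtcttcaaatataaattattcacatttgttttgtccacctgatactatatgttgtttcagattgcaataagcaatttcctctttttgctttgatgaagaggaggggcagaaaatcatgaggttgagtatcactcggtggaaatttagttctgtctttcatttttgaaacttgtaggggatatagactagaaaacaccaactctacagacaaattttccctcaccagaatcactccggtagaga
Klra7: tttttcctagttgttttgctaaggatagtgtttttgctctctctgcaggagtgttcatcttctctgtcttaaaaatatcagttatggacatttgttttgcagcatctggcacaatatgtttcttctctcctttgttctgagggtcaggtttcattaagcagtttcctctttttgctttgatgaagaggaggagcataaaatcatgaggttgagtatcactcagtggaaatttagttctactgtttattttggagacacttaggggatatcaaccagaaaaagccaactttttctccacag

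The RUNX letters, a core that RUNX3 and its relatives can bind, were found in 7 of the 11 promoter windows of these genes, some of which overlap, but not in that of the second Klre1 start site, and in 16.8% of 32851 promoter windows of all genes. The T-box letters GGTGTG were found in 1 of the 11 windows, that of Klra1, and in 19.0% of all windows. Neither set of letters was in the windows of Klra6 and Klra7, which were 83.3% identical over 270 aligned bases for the second start site of Klra7 and 56.8% for the first, while the Klrc1 and Klrc2 windows were 53.5% to 58.9% identical. A match is a description of the letters and shows no binding.

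The genes whose levels over the 12 libraries were most like the mean standardized profile of the 8 tested receptor genes were Arl4d (Pearson r 0.946), Trbv12-2 (0.942), Lrrk1 (0.931), Klra3 (0.924) and Trav16n (0.913). These values describe 12 libraries that fall into 4 groups. Arl4d averaged 6.33 CPM in B6 CD8, 3.30 in FlipFlop CD8, 1.31 in B6 CD4 and 1.29 in FlipFlop CD4 T cells, the order of the profile itself, in which B6 CD8 libraries were highest, at 0.52 to 1.34 SD above the mean, FlipFlop CD8 libraries followed, at 0.04 to 0.11 SD, and both CD4 groups were lower and overlapped.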

How the data were processed

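RNA from 12 libraries of sorted LN T cells was sequenced. The paper's methods name STAR on mm10, whereas the submitters' processing notes name Trimmomatic and TopHat with mm10, and the program that counted reads is not given in the sources used here. The authors deposited 1 table of normalized signal, CPM divided by a TMM factor per library, which is labelled as filtered by a rule not described here. Of its values under 100 CPM 84.8% to 86.4% were whole reads (tolerance 0.005 reads), so no count model was used. Values were transformed to log2(CPM + 0.5) and the 11595 genes that reached 1 CPM or more in 3 or more libraries were fitted with limma 3.58.1 (eBayes with trend) in R 4.3.3, over all 12 libraries without a block, with Benjamini-Hochberg adjustment. Genes were called at an adjusted p-value under 0.05. Alternatives changed the pseudocount, filter, scaling, libraries, block, call rule and moderation. All 12809 identifiers matched GENCODE M21. The procedure was tested on simulated data. Same-numbered libraries of CD4 and CD8 T cells deviated together in FlipFlop (r 0.271 to 0.513) and less in B6 mice (r 0.0887 to 0.352). The members and gene lists were chosen with earlier results of these data known. Named beside them were the 5 genes most like the members' mean profile, up to 4 genes of each list with the largest B6 lineage difference, up to 4 neighbors with the largest strain difference, and Hcst, Tyrobp, H2-T23 and Cdh1. Tbx21, Runx1, Runx3, Lef1, Tcrg-C2, Gzmb, Il2rb and Fcgr3 were named in addition, after their values were seen. The leading genes of the naive and B cell lists and of the T, CD4 and CD8 T cell marker lists are not reported here.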

Additional observations from a re-analysis of the deposited data

Results flagged for a closer look

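For 6 of the 8 tested receptor genes the test of the difference itself, the B6 lineage difference minus the FlipFlop lineage difference, passed an adjusted p of 0.05 (limma, all tested genes). Over all tested genes 5.49% did so in either direction. Of the genes called here, Klrc1, Klre1, Klra6 and Klra7 had passed the filter only with the B6 CD8 libraries. The signed B6 value was the higher by 3.50 for Klrc1 (adjusted p = 0.00656), 3.11 for Klrk1 (adjusted p = 0.00109), 2.74 for Klra6 (adjusted p = 0.000267), 2.70 for Klre1 (adjusted p = 0.000456), 2.39 for Klra7 (adjusted p = 0.0109) and 1.67 for Klrb1c (adjusted p = 0.00559). The cytotoxic minus helper differences had opposite signs in the strains for Klrk1, and for Klrb1c the helper mean was higher in both strains and by more in FlipFlop mice. The B6 lineage difference of Klrb1c was not called in 10 of the 12 fits that left out 1 library. Without B6 CD8 replicate 3, the highest library of its group for all 10 genes, the values were 3.14 for Klrc1, 2.76 for Klrk1, 2.49 for Klra6, 2.43 for Klre1, 1.89 for Klra7 and 1.41 for Klrb1c, and all 6 were still called. No test for single outlying samples was made, with 3 libraries in each group.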

How the results depend on the processing

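Counts of called genes among the 8 tested members stayed within 1.5 times under the other pseudocounts, scalings, blocks and fits, except as follows. With genes averaging at least 5 CPM only 2 members were left, and 2 were called in the B6 lineage, 2 in the FlipFlop lineage, 1 in the cytotoxic strain, 2 in the helper strain and 0 in the difference of lineage differences, because fewer members were tested. With more than 5-fold and p under 0.0001, 2 were called in the FlipFlop lineage, 0 in the helper strain and 3 in the difference of lineage differences. With p under 0.05 and the same fold, 2 and 0 were called in the former 2. Leaving out 1 library gave 7 to 8 in the B6 lineage, 4 in the FlipFlop lineage, 6 in the cytotoxic strain, 2 to 4 in the helper strain and 6 in the difference of lineage differences, and the 2 in the helper strain came without FlipFlop CD8 replicate 3. Over the fits that left out 1 library, 3 differences that were not called changed sign: Klrg1 in the cytotoxic strain (-0.17 to 0.36, negative without FlipFlop CD4 replicate 1), Klrb1c there (-0.32 to 0.10, positive without B6 CD8 replicate 3) and Klra6 in the helper strain (-0.0918 to 0.03, positive without B6 CD4 replicate 3). The causes were not tested.

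The replicate block gave 7, 4, 6, 4 and 6 called members in these 5 comparisons, and the block within strain gave 7, 5 and 7 in the B6 lineage, the FlipFlop lineage and the difference of lineage differences. Over all genes the replicate block gave 1427 higher and 1829 lower calls in the B6 lineage and 2032 and 1983 in the FlipFlop lineage. It gave 589 and 553 in the cytotoxic strain and 1870 and 2152 in the helper strain. In the difference of lineage differences it gave 501 and 265. The block within strain gave 1535 and 1940, 2139 and 2082, and 616 and 338 in the comparisons named for it. The blocks changed the calls of Klrb1c, Klrc1 and Klrg1 given above and those of no other member. Without the TMM factor the median of all genes moved to 0.152 in the helper strain difference and -0.135 in the FlipFlop lineage difference. Relative to that median the helper strain difference of Klrd1 was -0.52. Higher and lower calls over all genes then split 2872 to 551 instead of 1528 to 1668 in the helper strain, 785 to 2982 instead of 1779 to 1854 in the FlipFlop lineage, 913 to 2098 instead of 1256 to 1688 in the B6 lineage, 596 to 115 instead of 438 to 198 in the difference of lineage differences, and 552 to 341 instead of 483 to 435 in the cytotoxic strain. Over all genes, calls by the 5-fold rule with p under 0.0001 moved from 180 to 330 (pseudocount 0.1), 118 (pseudocount 1) and 119 (5 CPM filter) in the B6 lineage, from 250 to 415, 160 and 124 in the FlipFlop lineage and from 47 to 71, 31 and 24 in the helper strain, and with the 5 CPM filter from 55 to 34 in the cytotoxic strain and from 45 to 20 in the difference of lineage differences. At an adjusted p under 0.05 the count over all genes was 1500 instead of 3196 in the helper strain with only the libraries compared, and 301 instead of 636 in the difference of lineage differences with the 5 CPM filter. Without 1 library it ranged down to 1654 in the helper strain (without FlipFlop CD8 replicate 3) and 396 in the difference of lineage differences (without B6 CD8 replicate 2), and between 515 (without B6 CD8 replicate 2) and 1566 (without B6 CD4 replicate 1) instead of 918 in the cytotoxic strain. The Klrb1c mean in FlipFlop CD8 T cells was 12 without the TMM factor instead of 10.8 CPM. Depth limits the values under about 0.12 CPM, where a library held 3 reads or fewer.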

Other observations

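Of 20 further Klr genes that were listed, 4 were in the table. Klra9 and the pseudogene Klra13-ps, which fell below the filter, were at 0.562 to 0.961 CPM and 0.921 to 1.24 CPM in B6 CD8 libraries and at most 0.114 CPM in the other libraries. Klrb1f was at 4.40, 1.75 and 1.0 CPM in FlipFlop CD8 and at 0.460, 0.435 and 0.372 CPM in FlipFlop CD4 libraries, a lineage difference of -1.47 (adjusted p = 0.00609, limma). FlipFlop CD8 replicate 1 was the highest library for Klrb1f, as it was for Klrg1.

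Of 15 listed C-type lectin genes of the NK gene complex that are not Klr genes, 4 were in the table and 3 were tested. Cd69, an early activation antigen, averaged 71.5 to 78.0 CPM in the 4 groups. Clec2d, which encodes a ligand of NKR-P1 receptors, averaged 57.1 to 73.2 CPM. In the B6 lineage difference 0 of the 3 were called, also at an unadjusted p under 0.05 (limma), and between strains Clec2i alone was called, higher in FlipFlop CD8 than in B6 CD4 T cells by 0.30 (adjusted p = 0.0314, limma).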
